A study of Mus musculus with 8 samples.

Results

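The immediate early transcription factors Fosb, Egr1, Egr2, Jun and Atf3 and the receptor inhibitor gene Errfi1 were examined in mouse femoral cortical bone. They were chosen by name, as 6 genes that the authors' table of 1994 genes lists. Another 7 genes of the same kind (Fos, Fosl2, Junb, Egr3, Ier2, Ier3 and Nr4a1) were to be taken where listed. None of these 7 is in the table, and they were not analysed here, so 6 of the 13 named genes carry values.

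The study asked which transcripts change in bone when the FGF receptor gene Fgfr1 is inactivated in the adult. Control libraries came from mice with loxP-flanked Fgfr1 alleles (Fgfr1f/f). FGFR1-CKO libraries came from mice with the same alleles and DMP1-CreER, a tamoxifen-inducible Cre recombinase under the promoter of Dmp1, a gene of osteocytes and late osteoblasts. Both groups ate chow with tamoxifen (400 mg/kg) for 4 weeks, starting at 12 weeks of age, and bone was taken at 16 weeks from the femoral shaft after the marrow had been flushed out. The Control genotype names no Cre, so the presence of the recombinase and the loss of Fgfr1 cannot be told apart. The 4 Control libraries were those with the most Fgfr1 of 6 sequenced, and the 4 FGFR1-CKO libraries those with the least of 7. Each library is bulk RNA, in which fewer cells of a type and less RNA per cell cannot be told apart. Nothing in the labels ties each library to a mouse of its own. The p-values therefore speak for the spread among these 8 libraries, part of which may be technical. Picking the libraries by Fgfr1 may also have changed the differences, SDs and p-values of the 6 genes, which was not tested.

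Immediate early genes are transcribed within minutes of a stimulus without the need for new protein, and their messenger RNAs are short-lived. Growth factor receptors, FGF receptors among them, switch them on through RAS and ERK kinases, which act on SRF with its partners, while cyclic AMP and calcium act through CREB. FOS and JUN family proteins pair to form AP-1, EGR proteins bind GC-rich DNA through zinc fingers, and ATF3 binds sites related to those of CREB. ERRFI1, also known as MIG6, binds and inhibits the EGF receptor family, and its gene is itself induced by growth factors. In bone, AP-1 and EGR proteins are known to take part in the response of osteoblasts and osteocytes to mechanical load, parathyroid hormone and growth factors.

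The promoters of the genes are shown because short elements near the start are known to carry the induction of this class. Each window runs from 250 bases before to 50 bases after a transcript's start (RefSeq, GRCm38.p6, the assembly behind mm10), is written 5′ to 3′ on the strand of the gene, and has in capitals the matches to a set of motifs searched on both strands. The motifs were the cyclic AMP response element (CRE) TGACGTCA, its half-site TGACG, which the CRE contains, the Jun element TGACATCA, the AP-1 site TGANTCA, the EGR site GCGNGGGCG and the CArG box bound by SRF. RefSeq windows were at hand for 5 of the 6 genes, 10 windows in all. Where a gene had several, the window with the most matches is printed. Egr1 is named only.
Fosb (chr7:19309996-19310295, minus strand): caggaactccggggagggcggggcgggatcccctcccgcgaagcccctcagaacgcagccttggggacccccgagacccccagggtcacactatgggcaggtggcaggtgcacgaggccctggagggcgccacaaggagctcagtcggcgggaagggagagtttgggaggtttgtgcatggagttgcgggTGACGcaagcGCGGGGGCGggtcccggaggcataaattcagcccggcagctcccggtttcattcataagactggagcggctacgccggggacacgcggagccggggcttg
Egr2 (chr10:67537619-67537918, plus strand): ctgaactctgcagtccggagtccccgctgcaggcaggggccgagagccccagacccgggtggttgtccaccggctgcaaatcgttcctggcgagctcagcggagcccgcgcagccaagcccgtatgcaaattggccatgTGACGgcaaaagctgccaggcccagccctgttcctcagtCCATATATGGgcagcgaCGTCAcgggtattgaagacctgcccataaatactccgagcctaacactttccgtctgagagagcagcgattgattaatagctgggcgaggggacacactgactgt
Jun (chr4:95052173-95052472, minus strand): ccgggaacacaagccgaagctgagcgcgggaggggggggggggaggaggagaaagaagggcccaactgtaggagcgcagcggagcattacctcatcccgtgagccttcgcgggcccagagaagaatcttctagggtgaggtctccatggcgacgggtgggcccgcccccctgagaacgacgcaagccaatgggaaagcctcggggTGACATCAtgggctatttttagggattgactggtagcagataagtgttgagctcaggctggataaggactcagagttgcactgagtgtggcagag
Atf3 (chr1:191183284-191183583, minus strand): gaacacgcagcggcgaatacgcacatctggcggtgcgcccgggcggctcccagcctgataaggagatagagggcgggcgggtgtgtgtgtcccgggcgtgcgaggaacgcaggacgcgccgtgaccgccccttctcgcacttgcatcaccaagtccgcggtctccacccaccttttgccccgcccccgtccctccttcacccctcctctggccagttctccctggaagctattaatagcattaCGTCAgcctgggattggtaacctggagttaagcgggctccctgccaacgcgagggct
Errfi1 (chr4:150854820-150855119, plus strand): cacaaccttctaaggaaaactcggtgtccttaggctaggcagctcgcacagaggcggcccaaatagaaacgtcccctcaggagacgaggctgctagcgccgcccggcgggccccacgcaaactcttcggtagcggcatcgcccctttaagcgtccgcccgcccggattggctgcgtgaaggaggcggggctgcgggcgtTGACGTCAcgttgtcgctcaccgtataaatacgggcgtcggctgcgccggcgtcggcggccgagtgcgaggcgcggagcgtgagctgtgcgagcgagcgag

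The Fosb window holds a CRE half-site that begins 60 bases before the start and an EGR match 50 bases before it. The Egr2 window, 1 of 5 for that gene, holds a CArG box 72 bases before the start between a pair of CRE half-sites, at 111 and 55 bases. The Jun window holds the TGACATCA element, a known site for JUN and ATF2 dimers, 45 bases before the start. The Atf3 window has a CRE half-site 7 bases before the start, and the Errfi1 window, 1 of 2, has a full CRE 51 bases before it. A CRE half-site thus stands in the printed window of 4 genes, though those of Egr2 and Errfi1 were picked for having the most matches. Among 32851 RefSeq windows of 27025 mouse genes, taken without that choice, 20.8% hold that half-site and 1.79% the full CRE. The Jun element stands in 3.62%, the AP-1 site in 7.81%, a CArG box in 1.63% and the EGR site in 5.55%. A match describes letters in a window and shows no binding.

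Library totals ran from 9642436 to 11094287 reads, and the 1994 listed genes took 24.2% to 35.1% of them. Fgfr1, the targeted gene, averaged 594 CPM in Control (SD 71.3, n = 4) and 318 CPM in FGFR1-CKO (SD 32.1, n = 4), in CPM, the authors' reads per gene scaled to one common library total. That gene was used to pick the libraries, so its difference is a description. Of 23 osteoblast genes 21 are listed, and of 18 osteocyte genes 9, Dmp1 (928 CPM in Control), Mepe (652 CPM) and Phex (482 CPM) among them. Their summed levels ran from 138675 to 191694 CPM in Control and from 77083 to 122827 CPM in FGFR1-CKO for the osteoblast list. For the osteocyte list they ran from 2679 to 3215 and from 1698 to 1853 CPM. Most of the osteoblast sum came from Col1a1 (mean 93926 CPM in Control and 53083 in FGFR1-CKO) and Col1a2 (49145 and 27730 CPM). Erythroid and neutrophil genes lay the other way. The 22 listed of 24 erythroid genes summed to 7440 to 10530 CPM in Control and 21402 to 25371 CPM in FGFR1-CKO, and the 9 listed of 19 neutrophil genes to 8703 to 10788 and 14373 to 16837 CPM. The 2 listed of 15 monocyte and macrophage genes were lower in FGFR1-CKO, at 384 to 571 and 288 to 372 CPM. What part these shifts have in the values of the immediate early genes was not tested.

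In FGFR1-CKO bone, 5 of the 6 genes fell and 1, Atf3, was lower in the mean without passing the test. Fosb fell the most, to a mean 3.19-fold below Control. Egr1 fell 1.93-fold, Errfi1 1.81-fold, Egr2 1.63-fold and Jun 1.49-fold in mean CPM. The test was limma on log2(CPM + 1) over all 1994 listed genes, with a call at an adjusted p under 0.05 and a log2 fold change of at least 0.5 in size. The authors had listed every gene for differing between these same libraries. The p-values of the 6 genes therefore describe listed differences and are no independent test of them. By the same test, 60.6% of the 1265 genes that are lower in the authors' deposited table passed, against 38.4% of all listed genes in that direction and 75.0% in either. At any fold, 5 of the 6 had an adjusted p under 0.05, as had 99.4% of all listed genes. Rescaling by the authors' size factors left 5 of the 6 past the threshold, against 91.4% of the 1265 lower genes. The median log2 fold change was -0.71 over the 6 genes, -0.54 over the 1265 lower genes and -0.43 over all listed genes. The FGFR1-CKO libraries all lay below the Control libraries for 5 of the 6 genes, against 86.5% of the 1265 lower genes and, in either direction, 90.5% of all listed genes.

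**Figure D1:**
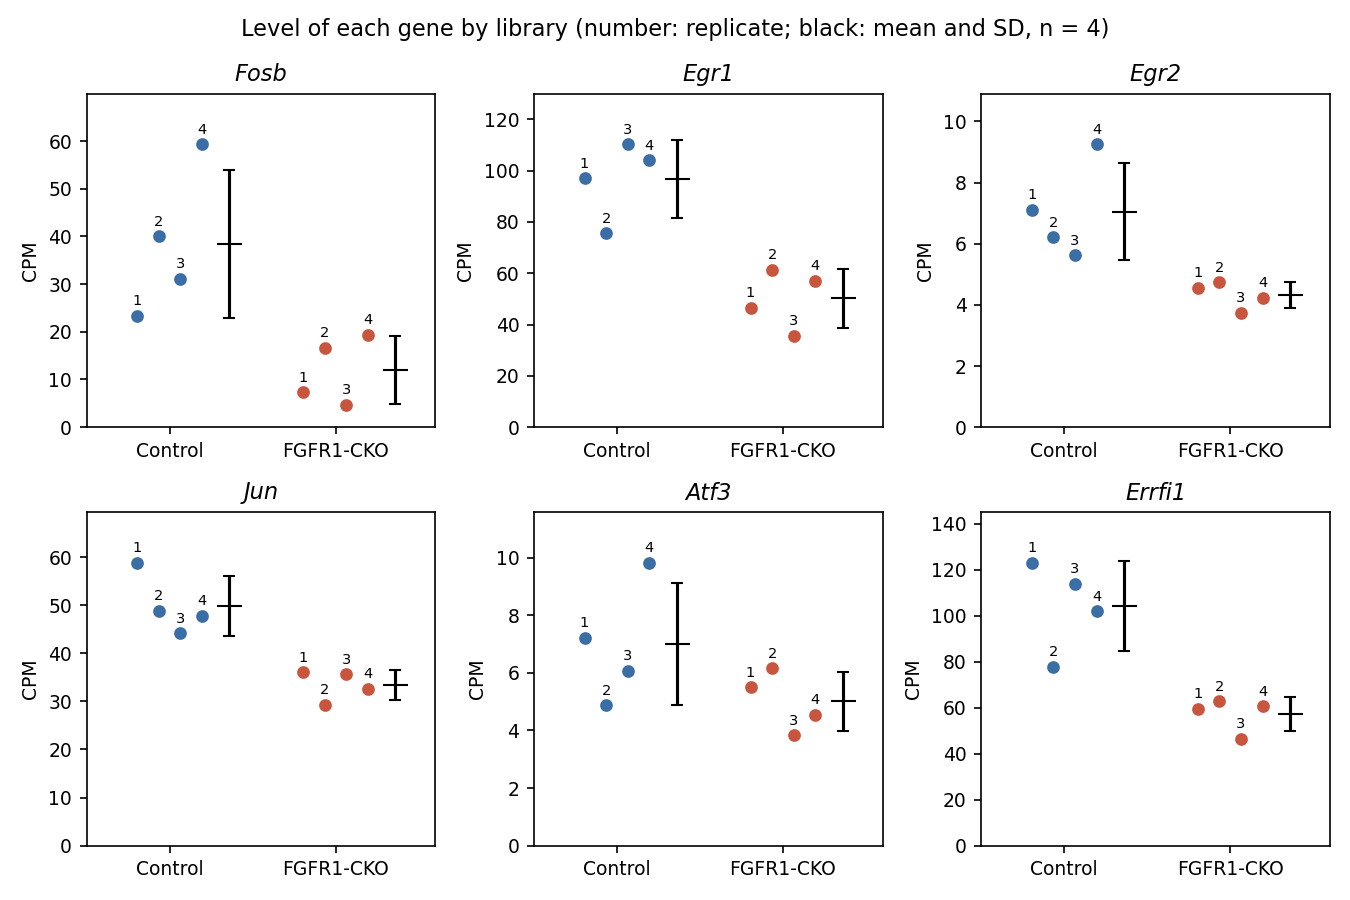
CPM of each gene (vertical axes, linear and starting at 0) in the 4 Control libraries (blue) and 4 FGFR1-CKO libraries (red); the numbers are replicate numbers and the black marks the mean and SD (n = 4). The groups overlap for Atf3 alone of the 6, and Fosb has the widest relative spread, from 4.71 to 19.4 CPM within FGFR1-CKO.

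Among the AP-1 genes, Fosb encodes a FOS family partner of JUN whose shortened form, deltaFosB, raises bone mass when overexpressed in mice. It lies on chromosome 7 at 19302696 to 19310051 (mm10, minus strand, ENSMUSG00000003545). Its level was 23.4, 40.0, 31.1 and 59.3 CPM in Control replicates 1 to 4 and 7.36, 16.7, 4.71 and 19.4 CPM in FGFR1-CKO replicates 1 to 4. The highest FGFR1-CKO library, replicate 4, stayed just under the lowest Control library, replicate 1, so the groups did not overlap. The means were 38.5 ± 15.5 and 12.0 ± 7.12 CPM (SD, n = 4), which is 68.7% lower. On the log2 scale Fosb differed by -1.70, with a standard error of 0.39 and a 95% interval of -2.56 to -0.85 (limma adjusted p = 0.00144). An exact 2-sided permutation test gave p = 0.0286, the smallest that 70 assignments of 4 against 4 libraries allow. Every gene whose groups lie apart reaches that p, and the groups lie apart for 90.5% of all listed genes. Behind the Fosb values stood 237 to 622 reads in Control and 49 to 188 reads in FGFR1-CKO. In the authors' deposited table the fold change of Fosb, -1.81 with a standard error of 0.51, ranks 4 of 1265 by the size of the fall, and its standard error also ranks 4 of 1994, largest first.

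The size of the Fosb difference depended on which libraries were compared. It was -1.37 without FGFR1-CKO replicate 3, the lowest library, and -1.47 without Control replicate 4, the highest (limma adjusted p = 0.00278 and 0.00398). Leaving out both gave -1.14 (limma adjusted p = 0.00461).

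Jun encodes the main AP-1 partner, and its promoter carries the TGACATCA element printed above. It lies on chromosome 4 at 95049034 to 95052222 (minus strand, ENSMUSG00000052684). Its level was 58.8, 48.9, 44.2 and 47.8 CPM in Control and 36.1, 29.3, 35.6 and 32.6 CPM in FGFR1-CKO. Every FGFR1-CKO library lay below every Control library, and the spread within each group was narrow. The means were 49.9 ± 6.27 and 33.4 ± 3.13 CPM (SD, n = 4), on 480 to 595 and 290 to 371 reads a library. The limma estimate for Jun was -0.56 on the log2 scale, with a standard error of 0.10 and a 95% interval of -0.78 to -0.34 (limma adjusted p = 2.98e-04). Control replicate 1, the highest library, carried the call past the fold limit, as without it the value was -0.48.

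Atf3 encodes a stress-induced factor that binds CRE and AP-1 sites and often represses. It lies on chromosome 1 at 191170296 to 191218039 (minus strand, ENSMUSG00000026628). Its level was 7.22, 4.87, 6.08 and 9.82 CPM in Control and 5.50, 6.17, 3.84 and 4.55 CPM in FGFR1-CKO. The groups overlapped, since Control replicate 2 lay under FGFR1-CKO replicates 1 and 2. The means were 7.00 ± 2.11 and 5.01 ± 1.03 CPM (SD, n = 4), on only 40 to 103 reads a library. For Atf3 limma gave a log2 fold change of -0.39, a standard error of 0.19 and a 95% interval of -0.81 to 0.03 (limma adjusted p = 0.0650), and the exact 2-sided permutation test gave p = 0.143. In the authors' deposited table Atf3 has a fold change of -0.59 and an adjusted p of 0.0458, close to the limits for being listed. Single libraries moved the value both ways. It passed without Control replicate 2, at -0.53 (limma adjusted p = 0.0160), and was -0.23 without Control replicate 4 (limma adjusted p = 0.197), -0.29 without FGFR1-CKO replicate 3 (limma adjusted p = 0.167) and -0.13 without both of these (limma adjusted p = 0.426).

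Among the EGR genes, Egr1 encodes a zinc finger factor induced in bone cells by growth factors and load. It lies on chromosome 18 at 34859823 to 34864984 (plus strand, ENSMUSG00000038418). Its level was 97.1, 75.6, 110.2 and 104 CPM in Control and 46.6, 61.4, 35.7 and 57.1 CPM in FGFR1-CKO. The groups did not overlap, with Control replicate 2 the lowest Control library and FGFR1-CKO replicate 2 the highest of the other group. The means were 96.8 ± 15.1 and 50.2 ± 11.5 CPM (SD, n = 4), from 839 to 1196 and 372 to 607 reads. Egr1 differed by -0.95 on the log2 scale, with a standard error of 0.16 and a 95% interval of -1.31 to -0.59 (limma adjusted p = 2.40e-04).

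Egr2 encodes a related factor, also called KROX20, that mice need for hindbrain patterning, myelination and normal bone formation. It lies on chromosome 10 at 67535475 to 67542188 (plus strand, ENSMUSG00000037868). Its level was 7.12, 6.22, 5.62 and 9.25 CPM in Control and 4.56, 4.75, 3.75 and 4.24 CPM in FGFR1-CKO. The groups did not overlap, the 4 FGFR1-CKO libraries lay close together, and Control replicate 4 lay above the rest of its group. The means were 7.05 ± 1.59 and 4.33 ± 0.441 CPM (SD, n = 4), from 61 to 97 and 39 to 47 reads. The limma estimate for Egr2 was -0.58 on the log2 scale, with a standard error of 0.15 and a 95% interval of -0.90 to -0.26 (limma adjusted p = 0.00261). Without Control replicate 4 the value was -0.46, short of the fold limit. At so low a level the added 1 CPM shrinks the fold, and with 0.1 CPM added instead the value was -0.67. Rescaling by the authors' size factors, with 1 CPM added, also gave -0.67. The authors' deposited table gives -0.81 with a standard error of 0.21, and the source of the remaining difference was not tested.

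Errfi1, the receptor inhibitor gene, lies on chromosome 4 at 150853919 to 150868892 (plus strand, ENSMUSG00000028967). Its level was 123, 77.9, 114 and 102 CPM in Control and 59.6, 62.8, 46.6 and 60.7 CPM in FGFR1-CKO. The groups did not overlap, although Control replicate 2 stood well below the other 3 Control libraries. The means were 104 ± 19.5 and 57.4 ± 7.35 CPM (SD, n = 4), from 864 to 1241 and 485 to 621 reads. Errfi1 differed by -0.84 on the log2 scale, with a standard error of 0.14 and a 95% interval of -1.14 to -0.53 (limma adjusted p = 1.88e-04).

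**Figure D2:**
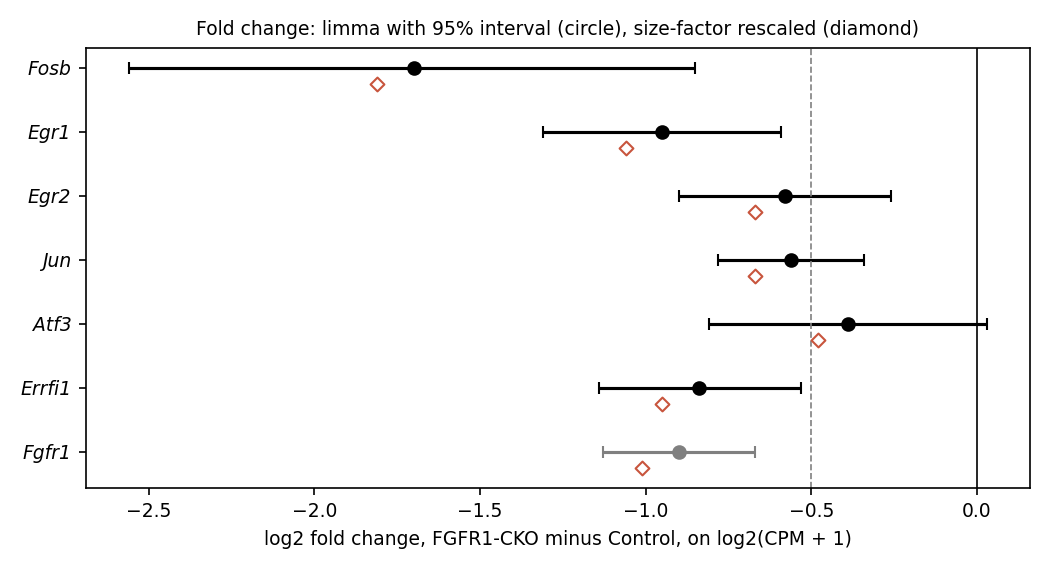
Log2 fold change of each gene and of Fgfr1 (grey) on log2(CPM + 1), FGFR1-CKO minus Control, with the limma 95% interval (circles and bars, 4 libraries a group) and the value after rescaling by the authors' size factors (diamonds); the dashed line is the fold limit of -0.5. The Atf3 interval is the sole one to cross 0, and the rescaled values lie further from 0 for all 7 genes.

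Per kilobase of exon, the order of levels in Control was Errfi1 (29.1 ± 5.43 CPM per kb), Egr1 (21.6 ± 3.37), Jun (15.7 ± 1.97), Fosb (6.16 ± 2.48), Atf3 (3.25 ± 0.981) and Egr2 (2.08 ± 0.468; SD, n = 4 for each). Only Jun and Fosb were neighbours in that order whose ranges did not overlap. In FGFR1-CKO the first 3 places were the same, with Errfi1 at 16.0 ± 2.05, Egr1 at 11.2 ± 2.56 and Jun at 10.5 ± 0.983 CPM per kb (SD, n = 4). Fosb then stood behind Atf3, at 1.93 ± 1.14 against 2.33 ± 0.476 CPM per kb (SD, n = 4), with overlapping ranges. Fosb was above Atf3 in 4 of 4 Control libraries, and Atf3 was above Fosb in 3 of 4 FGFR1-CKO libraries.

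The spread between libraries of the same genotype set Fosb apart from the other 5 genes. Its SD on log2(CPM + 1), pooled over both genotypes, was 0.73, against a median of 0.15 over all listed genes and a 95th percentile of 0.32. That was rank 3 of 1994, largest first, and rank 1 among the 798 listed genes with a mean CPM within 2-fold of its own, whose median was 0.14. Within FGFR1-CKO its SD of 0.88 was the largest of all listed genes, with a highest library 4.13 times the lowest. In Control the SD was 0.55 and that ratio 2.53.

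Atf3 had the next largest pooled SD at 0.32 (rank 106 of 1994), followed by Egr1 at 0.29 (rank 154), Errfi1 at 0.24 (rank 297), Egr2 at 0.21 (rank 444) and Jun at 0.15 (rank 923). Jun thus varied about as much as the median listed gene. Among listed genes with a mean CPM within 2-fold of their own, Egr1 ranked 29 of 624, Atf3 47 of 482 and Errfi1 55 of 616. Egr2 ranked 169 of 459 and Jun 271 of 738. Egr1, Atf3 and Errfi1 thus also varied more than most listed genes of their level. The listed genes are a selection from 18026 tested, kept for differing between the groups, which can leave out genes with a wide spread. These ranks, and those of Fosb, hold within that selection only. Counting error alone would give an SD of 0.10 for Fosb, 0.05 for Egr1 and Errfi1, 0.07 for Jun and 0.16 for Egr2 and Atf3. For the Fosb, Egr1 and Errfi1 reads, the chi-square per degree of freedom between libraries of a group lay between 9.65 and 64.4. It was 8.17 in Control and 2.91 in FGFR1-CKO for Jun, 6.88 and 2.12 for Atf3, and 3.83 and 0.457 for Egr2. The Egr2 value in FGFR1-CKO was the sole one under 1, the level that counting error alone gives. Dividing the log2 fold change by the pooled SD put Jun at 3.65, Errfi1 at 3.44, Egr1 at 3.22, Egr2 at 2.74, Fosb at 2.32 and Atf3 at 1.23 in size, against a median of 3.65 over the 1265 lower genes. By that measure Fosb, with the largest fold of the 6, stood ahead of Atf3 only.

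**Figure D3:**
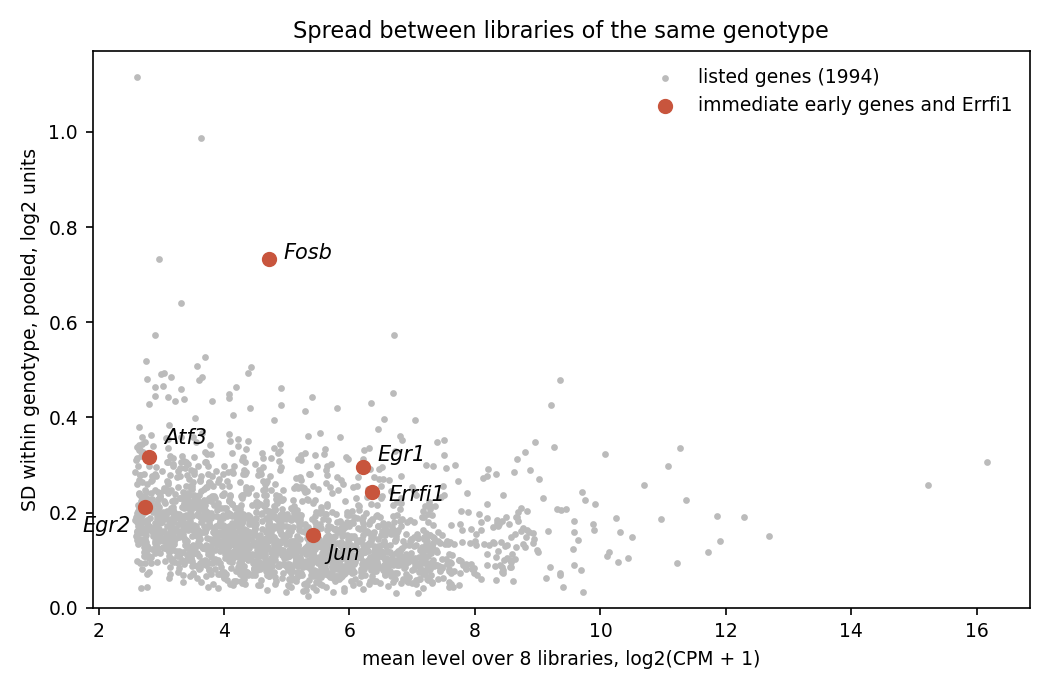
SD between libraries of the same genotype, pooled over Control and FGFR1-CKO (vertical axis, log2 units), against the mean level over 8 libraries on log2(CPM + 1) (horizontal axis) for the 1994 listed genes (grey) and the 6 genes (red). Fosb, at 0.73, lies far above listed genes of a similar level, and Jun, at 0.15, lies among them.

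The libraries did not keep one order across the 6 genes. FGFR1-CKO replicate 3 was the lowest of all 8 libraries for Fosb, Egr1, Egr2, Atf3 and Errfi1. It was the lowest FGFR1-CKO library for 47.7% of the 1265 lower genes as well. For Jun it was the third lowest, and FGFR1-CKO replicate 2 was the lowest. Control replicate 4 was the highest library for Fosb, Egr2 and Atf3, Control replicate 1 for Jun and Errfi1, and Control replicate 3 for Egr1. Fgfr1 itself was lowest in FGFR1-CKO replicate 4, the library with the most Fosb of its group.

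Against the mean of its own genotype, Fosb lay -0.61, 0.14, -0.22 and 0.69 log2 units off in Control replicates 1 to 4, and -0.45, 0.63, -1.01 and 0.83 in FGFR1-CKO replicates 1 to 4. Egr1 deviated in the same direction as Fosb in each FGFR1-CKO library, at -0.08, 0.32, -0.45 and 0.21. Jun deviated in the opposite direction from Fosb in each of them, at 0.11, -0.18, 0.10 and -0.03. In Control, Egr1 lay at 0.02, -0.34, 0.20 and 0.12 and so shared the direction of Fosb in replicate 4 only. Over the 8 libraries, the Pearson r of such deviations was 0.89 between Egr2 and Atf3, 0.82 between Egr1 and Errfi1, 0.65 between Fosb and Egr1, and -0.64 between Fosb and Jun. Among the r values of Fosb with all 1993 other listed genes, that with Egr1 ranked 350, highest first. These are descriptions over 8 points that share library and depth.

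**Figure D4:**
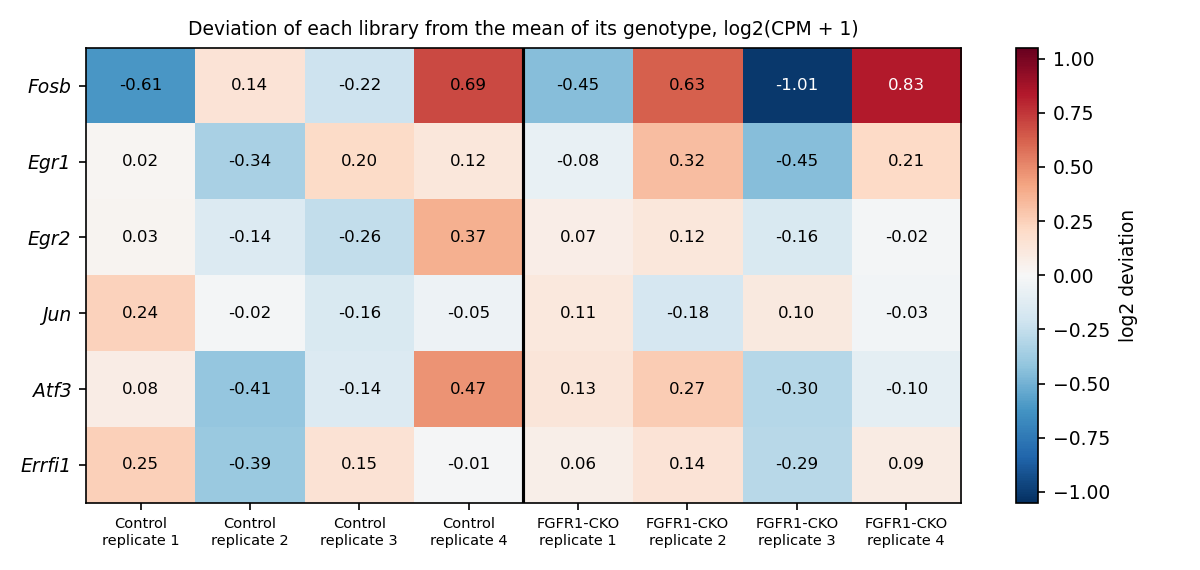
Deviation of each library (columns) from the mean of its own genotype on log2(CPM + 1) for each gene (rows), in log2 units by colour and number; the black line divides Control from FGFR1-CKO. Fosb spans from -1.01 to 0.83, and FGFR1-CKO replicate 3 is below its group mean for each gene but Jun.

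Ratios of CPM between pairs of genes were taken within each library. Errfi1 over Egr1 ranged from 0.978 to 1.26 in Control and from 1.02 to 1.30 in FGFR1-CKO, ranges that overlapped for most of their width. Fosb over Jun ranged from 0.398 to 1.24 in Control and from 0.132 to 0.597 in FGFR1-CKO, with a mean log2 difference of -1.24 and overlapping groups. Egr1 over Fgfr1 ranged from 0.143 to 0.190 and from 0.105 to 0.207, and Errfi1 over Fgfr1 from 0.154 to 0.197 and from 0.137 to 0.220. Fosb over Fgfr1 ranged from 0.0346 to 0.0964 and from 0.0139 to 0.0705, a mean log2 difference of -0.92. Jun over Fgfr1 lay the other way, from 0.0764 to 0.0965 and from 0.0946 to 0.118, a mean log2 difference of 0.33. Each of these ratios overlapped between the groups.

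The listed osteoblast genes were also lower in FGFR1-CKO, by 0.79 log2 units in their mean. Relative to that mean in the same library, Errfi1 differed by -0.05, Egr1 by -0.16, Egr2 by 0.21, Jun by 0.23 and Atf3 by 0.40 log2 units, and the groups overlapped for each. Fosb differed by -0.91 relative to it, and there too the groups overlapped, from -4.20 to -2.90 in Control and from -5.70 to -3.69 in FGFR1-CKO. Without FGFR1-CKO replicate 3 the relative difference of Fosb was -0.54, and those of Egr1 and Errfi1 turned to 0.03 and 0.09. Errfi1 also turned to 0.06 without Control replicate 1 and was -0.20 without Control replicate 2. Relative to the 9 listed osteocyte genes, Fosb differed by -0.96, Egr1 by -0.20, Errfi1 by -0.09, Egr2 by 0.17, Jun by 0.18 and Atf3 by 0.36. The osteoblast and osteocyte genes were listed for differing between the same libraries, so these values carry no test. At the low level of Egr2 and Atf3 the added 1 CPM shrinks the fold, which can raise their values relative to both lists. With 0.1 CPM added instead, their own log2 fold changes were -0.67 and -0.45, against -0.58 and -0.39. Whether the 6 transcripts come from bone-forming cells was not tested, and other cell types moved the same way. The 7 listed of 13 osteoclast genes were lower by 0.94 log2 units in their mean, the 8 listed of 14 endothelial genes by 0.50 and the 6 listed of 8 pericyte and smooth muscle genes by 0.65.

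The genes whose deviations across the 8 libraries were most like each of the 6 were sought among 1880 listed genes. For Fosb these were Spock2 (r = 0.996), Sec14l2 (0.988) and Nnt (0.986), of which Sec14l2 was higher in FGFR1-CKO. For Egr1 they were Ralgds (r = 0.995), Grin2d (0.992) and Notch3 (0.991), and for Egr2 Pdgfb (r = 0.988), Naglu (0.987) and Col6a5 (0.981). Jun was closest to Plk2 (r = 0.997), a kinase gene that is itself an immediate early gene, then to Chst14 (0.965) and Il11ra1 (0.952). Atf3 was closest to Kazn (r = 0.988), Selenbp1 (0.984) and Parvg (0.982), of which Selenbp1 and Parvg were higher in FGFR1-CKO. Errfi1 was closest to Gja5 (r = 0.996), Wdcp (0.993) and Arhgef10 (0.991). None of these 18 genes was among the nearest 3 of more than 1 gene. The highest of 1880 r values over 8 points are high by selection, so these names are a description and show no shared control.

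Of 42 other immediate early genes, 10 were listed, of which 6 fell, 2 rose and 2 did not pass. That share of falls is near the 60.6% of the 1265 lower genes that fell, beside 38.4% of all listed genes, and it is no result about the list. Btg2, an antiproliferative gene, rose by 0.74 on the log2 scale, from 54.5 ± 3.75 to 92.2 ± 8.88 CPM (SD, n = 4; limma adjusted p = 1.93e-05). Id3, an inhibitor of helix-loop-helix factors, fell by 0.57 (limma adjusted p = 1.89e-04), and Zfp36l1, which speeds decay of messenger RNAs, fell by 0.54 (limma adjusted p = 2.68e-04). Klf4, a zinc finger factor, had a value of -0.45, short of the fold limit. Of the rest, named after their values were seen, Trib1 rose by 0.60 and Ccn2 stood at -0.42, short of the limit. Ier5l (-0.64), Ccn1 (-0.59), Plk2 (-0.58) and Nr4a2 (-0.51) fell, with overlapping groups for Ccn1 and Nr4a2. After size-factor rescaling 8 of the 10 fell and 1 rose, where 91.4% of the 1265 lower genes fell. Immediate early genes in the table therefore moved in both directions.

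Of 18 other AP-1 and ATF family genes only Mafk was listed, and it rose by 0.61, from 27.0 ± 1.16 to 41.8 ± 1.55 CPM (SD, n = 4; limma adjusted p = 1.55e-05). MAFK is a small MAF protein that also serves in erythroid cells, whose genes were higher in the same libraries, and their part in its value was not tested. Of 3 EGR partners, Nab2, a corepressor of EGR proteins and itself an EGR target, had a value of -0.38 that did not pass. None of 13 SRF, TCF and CREB regulators, 25 ERK pathway genes or 13 genes of heat shock and dissociation stress was listed, and nothing is known here of their levels.

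Of 20 feedback inhibitors of MAPK signalling 5 were listed, of which 2 fell, 1 rose and 2 did not pass. By the same test 60.6% of the 1265 lower genes and 38.4% of all listed genes fell. Dusp4, a phosphatase of ERK, fell by 0.60 (limma adjusted p = 0.00220), and Spry4, a Sprouty inhibitor of receptor signalling, fell by 0.53 (limma adjusted p = 6.61e-04). Spred1 and Lrig3 had values of -0.47 and -0.44 and did not pass, and Dusp2, named after its value was seen, rose by 0.61 with overlapping groups (limma adjusted p = 0.00534). After size-factor rescaling 4 of the 5 fell and 1 rose, where 91.4% of the 1265 lower genes fell. These counts are no result about the list. Of 15 ERBB receptors and ligands only 2 were listed, and the rest have no values here. Erbb2 fell by 0.52 (limma adjusted p = 0.00104) and Egfr by 0.50 (limma adjusted p = 0.00221), both receptors that ERRFI1 inhibits. As 60.6% of the 1265 lower genes fell, the 2 falls are no result about the list. Of 5 FGF receptor genes 3 were listed. Fgfr2 and Fgfr3 fell, with values of -0.54 and -0.81, and Fgfr1, by which the libraries were picked, had a value of -0.90.

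Of 20 genes that AP-1 or EGR factors are known to control in bone cells, 14 were listed, of which 12 fell, 1 rose and 1 did not pass, with a median log2 fold change of -0.88. Over the 1265 lower genes 60.6% fell with a median of -0.54, and over all listed genes 38.4% fell with a median of -0.43. After size-factor rescaling 12 of the 14 fell and 1 rose, where 91.4% of the 1265 lower genes fell. Mmp13, the collagenase of bone and cartilage, fell by 1.30 (limma adjusted p = 4.35e-05). Spp1, which encodes osteopontin, fell by 1.13, and Ibsp, which encodes bone sialoprotein, fell by 0.68 (limma adjusted p = 9.77e-06 for each). Plaur, the urokinase receptor gene, rose by 0.75 (limma adjusted p = 1.56e-05). Csf1, named after its value was seen, stood at -0.38 and did not pass. Of the 14 listed genes, 7, Spp1 and Ibsp among them, are also in the osteoblast list, of whose 21 listed genes 19 fell. The count is therefore no result about control by AP-1 or EGR factors.

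**Figure D5:**
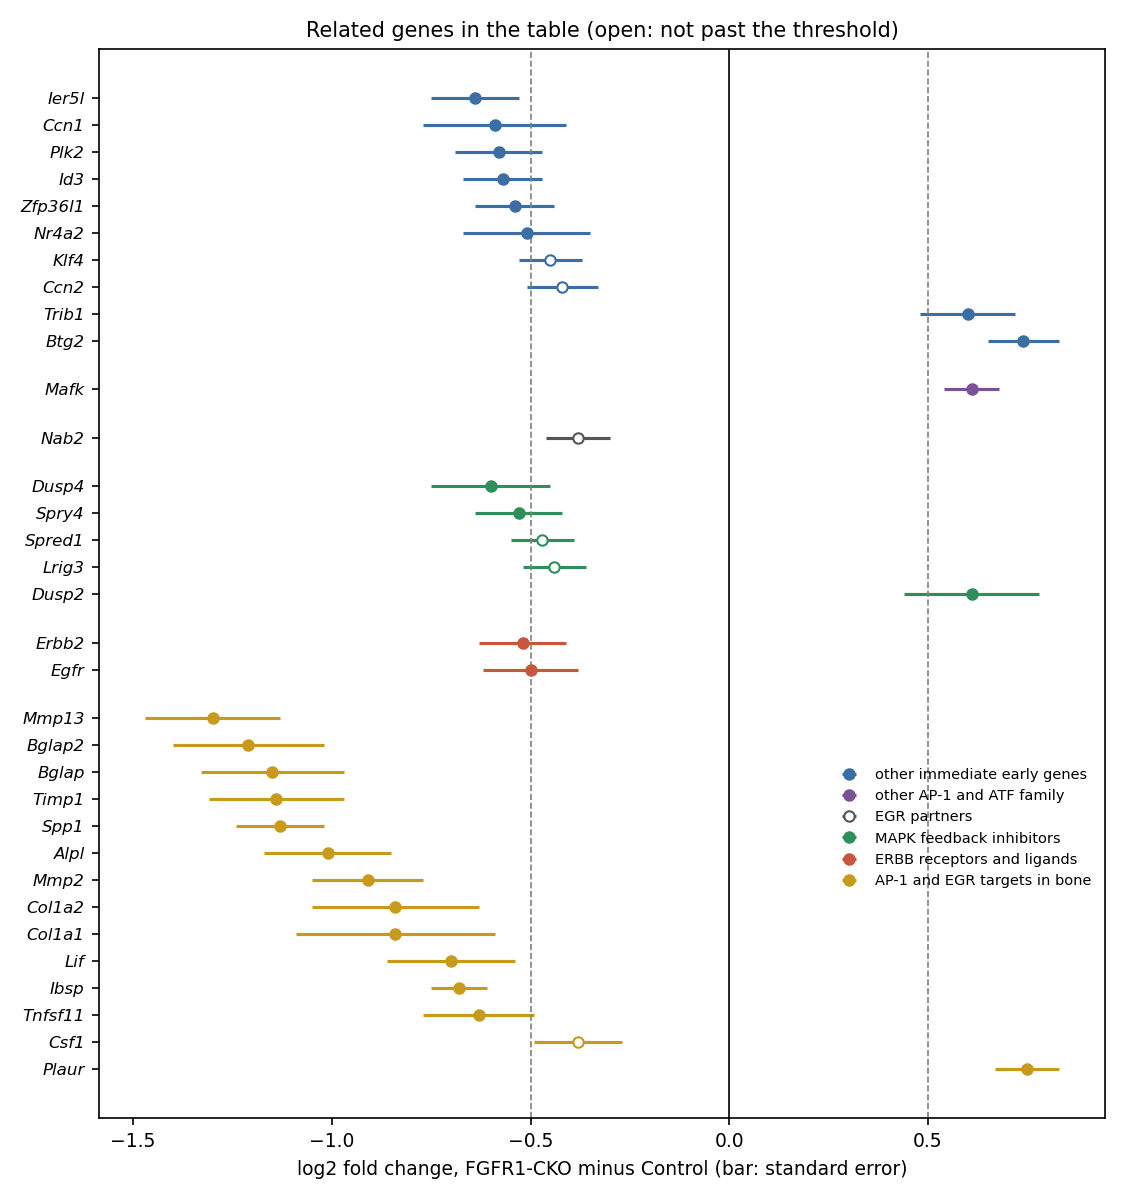
Log2 fold change on log2(CPM + 1), FGFR1-CKO minus Control, with its limma standard error (bars), of every listed gene in 6 lists of related genes (colours); filled points passed the threshold, open points did not, and dashed lines mark the fold limit of 0.5. Most lie to the left of 0, from -1.30 for Mmp13, and Btg2, Trib1, Mafk, Dusp2 and Plaur lie to the right.

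The authors' workbook also holds lists of symbols from Ocy454 cells, a mouse osteocyte-like cell line, with no values. The lists headed as up with FGF2, an FGF receptor ligand, hold Errfi1 in the versions with 159 and 186 symbols, and none of the 6 genes in the version with 66. The lists headed as up with BGJ hold Egr2 in each version (74, 151 and 164 symbols). A combined list of 627 symbols, headed as up and down together, holds Egr1, Egr2 and Errfi1, that is 3 of the 6, and 183 of all 1994 listed genes. Of the genes not listed in bone, Egr3, Ier2 and Nr4a1 stand in it too. Egr1 is in none of the lists headed as up with FGF2 or BGJ, so no direction is given for it. A sheet of 169 apoptosis symbols holds Fosb, Jun, Atf3 and Errfi1, and 16 of all listed genes.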

How the data were processed

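RNA was sequenced as paired reads after ribosomal RNA removal and random priming, per the labels' protocols. Tools listed in the submitters' processing notes, with no role for each, are DESeq2, edgeR, RSEM, featureCounts, Subread 2.0.1, STAR 2.7.9a and cutadapt; the build is mm10. The authors deposited CPM per library for 1994 genes, without further scaling. Beside it the authors deposited, per the file headers, a mean normalized count (a signal over all 8 libraries), log2 fold changes, standard errors, a test score (the fold change over its error) and p-values. In the authors' deposited table the smallest log2 fold change is 0.50 in size and the largest adjusted p 0.0489, with 18026 genes tested. All CPM values (100.0%) are whole reads within 0.001 for 1 total a library, which gives the reads quoted. Size factors from the authors' signal column ran from 0.98 to 1.02.

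Fold changes come from limma 3.58.1 (R 4.3.3, eBayes with trend) on log2(CPM + 1), genotype as sole term, 2-sided, on all listed genes with Benjamini-Hochberg adjustment. The step was run on simulated counts in which most genes were unchanged and all shared a common dispersion. The listed genes differ from that setting in both respects, so that run checks the working of the step only. A call needs an adjusted p under 0.05 and a log2 fold change of 0.5 or more in size. Genotype labels set the groups. Replicates are numbered by accession order and pair nothing, and no label gives a batch. Levels per kilobase use the exon length in GENCODE M21 for mm10, which also gives positions. The 6 genes and all lists were chosen with earlier results of these data known. Text names the 6, Fgfr1, up to 4 genes a list with the smallest adjusted p, and for each of the 6 the 3 listed genes with the highest r of deviations within genotype (predicted genes and mean normalized counts under 50 left out). Dmp1, Mepe, Phex, Col1a1, Col1a2, Trib1, Ccn2, Ier5l, Ccn1, Nr4a2, Dusp2 and Csf1 stand outside that rule. Cell type lists of monocyte, stromal and fat, B, T and NK and muscle cells had 2 of 15, 6 of 10, 3 of 8, 0 of 8 and 0 of 8 genes listed. Use of strand in counting is not given in the sources used here. Alternatives were size-factor rescaling, pseudocounts of 0.1, 0.5 and 5, no trend, array weights, a filter at 10 CPM and leaving out libraries. Count models (edgeR, DESeq2) were not run here.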

Additional observations from a re-analysis of the deposited data

How the results depend on the processing

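Fosb, Egr1 and Errfi1 kept their direction and their calls in all 16 alternatives, with log2 fold changes of -1.98 to -1.14, -1.06 to -0.76 and -0.97 to -0.74. Egr2 lost its call on the fold limit with a pseudocount of 5 (-0.36), with array weights (-0.49), without Control replicate 4 (-0.46) and without that library and FGFR1-CKO replicate 3 (-0.40). The fold change of each of the 6 kept its sign in the alternatives run. The number of genes past the threshold was 5 after size-factor rescaling, which moved the median fold change of all genes by -0.11, and ran from 4 to 6 when 1 library was left out. The groups lay apart for 5 genes each time. Without Control replicate 4 the pooled SD of Egr2 was 0.13. Egr2 and Atf3 had 39 to 103 reads a library and drop out of the filter at 10 CPM. Counting error alone gives an SD of 0.16 for both, of a pooled SD of 0.21 and 0.32. The planned edgeR and DESeq2 fits were not run, since the deposited genes are a selection. No paired analysis was possible because the labels give no replicate numbers shared between the groups. In all but these settings and those given above for Jun and Atf3, calls of the 6 were the same, and the cause of each change was not tested.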
